A study of Mus musculus with 9 samples.

Results

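The pluripotency network of mouse embryonic stem cells was followed through the introns of 39 genes, chosen by symbol from the factors, signalling genes and markers that stem cell studies commonly use. Every intron of these genes that the authors' deposited table lists was kept, which gave 92 of 22228 introns in 34 of the 39 genes. No intron was listed for Sox2, Klf5, Dppa3, Nr0b1 or Rex2 (Sox2 has no intron at all). The v6.5 cells formed 4 groups of 2 libraries each, which received KH-CB19 for 2 h, KH-CB19 for 0 h, DMSO for 2 h or DMSO for 0 h, and polyadenylated RNA was sequenced. KH-CB19 inhibits the Clk kinases, which phosphorylate splicing factors, and it was dissolved in DMSO, so all 4 groups carried the solvent. All cells were 1 line, grown on gelatin in serum with ESGRO, a preparation of the cytokine LIF. The values are the authors' means over the 2 libraries of a group (biological duplicates per the labels), so no spread between libraries can be given for any of them.

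Mouse stem cells in such medium renew themselves through a small circuit of transcription factors. Pou5f1 (Oct4), Sox2 and Nanog form its core, and Klf4, Esrrb, Tfcp2l1, Tbx3 and Prdm14 sustain the naive state. LIF acts through its receptor chains Lifr and Il6st to activate Stat3, while Fgf4 signalling through Fgf receptors pushes cells towards differentiation, and Tcf7l1 represses network genes until Wnt signalling relieves it. Detained introns are introns that remain in polyadenylated transcripts held in the nucleus, a state in which the transcript is not translated.

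For each intron the table gives, at 0 h, an observed mean read count and an expected one, and for introns classed as detained also a normalised mean at 2 h. Of 8 stem cell markers, 7 had introns with reads (all but Sox2). Their observed means summed to 4243.5 reads in KH-CB19 and 6143 reads in DMSO at 0 h, of which Dppa5a held 1615 and 2639. All 8 are members of the network, so they are no independent check of the cell label. Of 27 germ layer and trophoblast markers only Tfap2c was listed, with 73.0 reads in KH-CB19 and 84.5 in DMSO. Of 16 fibroblast markers only Fn1 was listed, with 2562 reads in KH-CB19 and 3265.5 in DMSO at 0 h. Of its 5 detained introns 1 fell at 2 h, intron 34, with 57.6 normalised reads in KH-CB19 and 116 in DMSO (log2 ratio −1.01, adjusted p = 0.00763 per the authors' deposited table). Whether any fibroblasts were present, and what part they would have in the network's values, was not tested. RNA integrity numbers of the 8 libraries lay between 8.8 and 9.4.

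At 2 h, 1 detained intron of the network rose, 1 fell and 12 of 14 did not pass an adjusted p of 0.05. The rise was in Tfcp2l1, a transcription factor of the naive state, and the fall in Tcf3, an E protein taken in by its symbol. That symbol has also been used for Tcf7l1, so the place of this fall in the network is not settled. Over all 3454 detained introns the same threshold called 5.47% as rises and 4.17% as falls, so 1 of 14 in each direction (7.14%) lay near the background. The 14 introns, in 10 genes, were 15.2% of the network's introns, against 15.5% in the whole table. Their median log2 ratio was 0.26, with 9 above and 5 below 0, against a median of 0.00 over all detained introns. Sums of their normalised means were 4354 reads in KH-CB19 and 3817 reads in DMSO, of which intron 3 of Dppa5a alone held 2108 in KH-CB19 and 1726 in DMSO. The authors' response class reads "Less" for the Tfcp2l1 intron and "More" for the Tcf3 intron, opposite to the direction of the reads; what the class words refer to is not given.

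**Figure D1:**
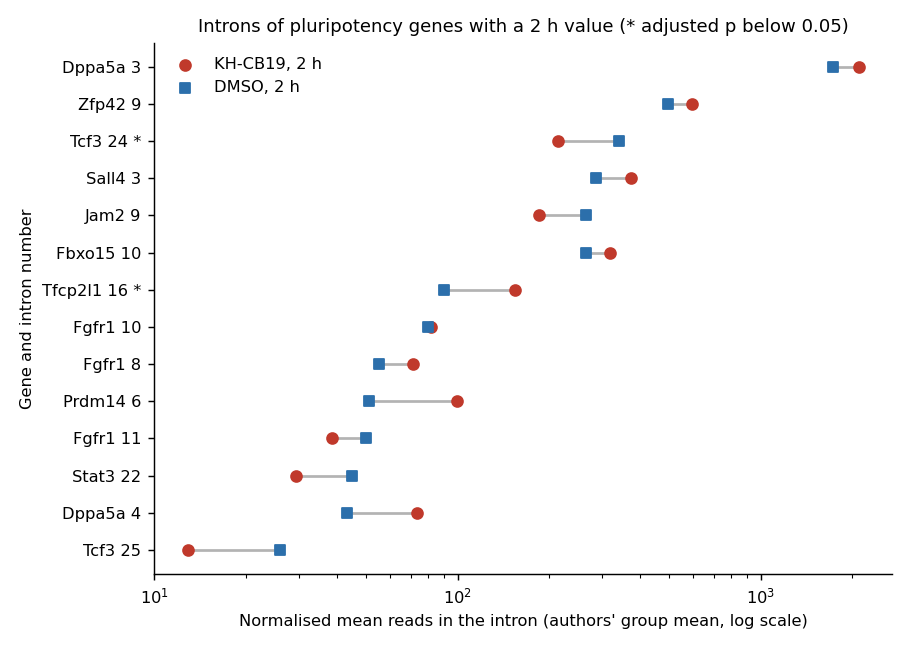
Normalised mean reads at 2 h in the 14 detained introns of pluripotency genes, on a log axis, with KH-CB19 as red circles and DMSO as blue squares. Each point is the authors' mean over 2 libraries, and a star marks the introns past an adjusted p of 0.05: Tfcp2l1 intron 16 (155 reads in KH-CB19, 90.4 in DMSO) and Tcf3 intron 24 (215 reads in KH-CB19, 341 in DMSO).

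The exon bases that splicing would join across both called introns, and across the next intron of Tcf3, are shown here because they mark where each intron would be removed. They were read from GENCODE M21 transcripts, whose introns were matched to the table by gene and exact length. Capitals mark the last 3 bases of the upstream exon and the first 2 of the downstream exon.
Tfcp2l1 intron 16: gtggtaagcaatGAGATggttcagaatttc
Tcf3 intron 24: acgcacgcgcacCAGTAcagatgaggtgct
Tcf3 intron 25: agcagcaggtgcGAGAAcgcaacctgaacc
Tcf3, into the exon inside intron 24: acgcacgcgcacCAGCCcagacgaggacga

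Neither core factor with listed introns was detained. Pou5f1, the central factor of the network, had 25.5, 18.0 and 29.5 observed reads in introns 3, 4 and 5 in KH-CB19 at 0 h, against 25.5, 20.5 and 32.5 in DMSO. Only intron 4 passed, below expectation, with a log2 ratio of observed to expected reads of −1.12 in KH-CB19 and −1.03 in DMSO per the authors' deposited table (adjusted p = 0.0331 in KH-CB19, adjusted p = 0.0366 in DMSO). Nanog, which stabilises self-renewal, had 202.5, 92.0 and 78.0 reads in introns 3, 7 and 8 in KH-CB19 and 274.5, 108.5 and 80.5 in DMSO. All 6 of these ratios for Nanog lay between −0.20 and 0.15 on the log2 scale, and none passed per the authors' deposited table. Without the class, neither gene had a value at 2 h.

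Tfcp2l1 carried the network's only called rise. Its intron 16 lies on chromosome 1 from 120566109 to 120572151 (build mm9, as for all coordinates here; plus strand, 6043 bp) and matched intron 13 of 14 of the annotated coding transcript, between coding exons. It had a normalised mean of 155 reads in KH-CB19 and 90.4 reads in DMSO at 2 h, 1.71-fold higher (log2 ratio 0.77, adjusted p = 0.0271 per the authors' deposited table). At 0 h it had 113.5 observed and 31.0 expected reads in KH-CB19 and 118.0 observed and 36.5 expected in DMSO, log2 ratios of 1.87 and 1.69 per the authors' deposited table. After centring on all introns, the 0 h ratio of KH-CB19 to DMSO was 0.27 on the log2 scale, with a 95% counting interval from −0.00 to 0.53. This interval includes 0, so a difference at 0 h was not detectable at this depth.

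The other 7 listed introns of Tfcp2l1 stayed low. Their observed means ran from 10.0 to 23.5 reads in KH-CB19 and from 10.0 to 27.0 in DMSO at 0 h. None differed from expectation per the authors' deposited table. Per kb of intron, intron 16 held 18.8 reads in KH-CB19 and 19.5 in DMSO. The next highest was its downstream neighbour, intron 17, with 9.65 reads per kb in KH-CB19 and 13.3 in DMSO.

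**Figure D2:**
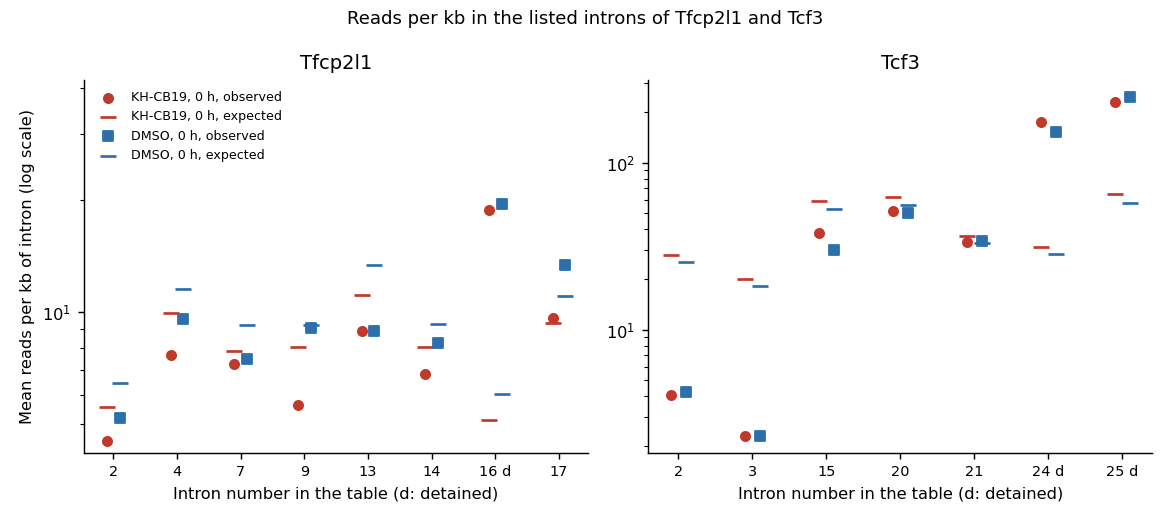
Observed (symbols) and expected (dashes) mean reads per kb at 0 h, on a log axis, in each listed intron of Tfcp2l1 (left) and Tcf3 (right), with KH-CB19 in red and DMSO in blue. Intron 16 of Tfcp2l1 stands above its expected level (18.8 observed per kb in KH-CB19, 19.5 in DMSO), as do introns 24 and 25 of Tcf3.

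Prdm14, a repressor of differentiation genes, had a larger ratio than Tfcp2l1 with no call. Its intron 6 (chromosome 1, 13105963 to 13108843, intron 6 of 7) had 99.3 normalised reads in KH-CB19 and 51.1 in DMSO at 2 h, a log2 ratio of 0.96 with adjusted p = 0.248 per the authors' deposited table. Over all detained introns 177 had a ratio at least as high, and 124 of those were called. The intron just upstream, intron 5, was below expectation at 0 h, with 12.5 observed and 31.0 expected reads in KH-CB19 and 11.0 and 38.5 in DMSO.

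Zfp42 (Rex1), a classical marker of undifferentiated cells, was detained in intron 9. In the 1 coding transcript that matched, this intron lies between untranslated exons; it had 591 normalised reads in KH-CB19 and 494 in DMSO at 2 h (log2 ratio 0.26, adjusted p = 0.465 per the authors' deposited table). Introns 2 and 8 were below expectation in both groups at 0 h. Sall4, which partners Pou5f1, was detained in intron 3, with 373 normalised reads in KH-CB19 and 287 in DMSO at 2 h (log2 ratio 0.38, adjusted p = 0.263 per the authors' deposited table). Fbxo15, a target of Pou5f1, was detained in intron 10 (319 normalised reads in KH-CB19 and 264 in DMSO at 2 h, log2 ratio 0.27, adjusted p = 0.655 per the authors' deposited table).

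The position of 2 Sall4 introns needs care. Counted by distance from intron 7, the only matched intron of Sall4, all 105 bp of intron 3 and all 1649 bp of intron 8 lie inside annotated exons. Intron 8 had 3731 observed reads in KH-CB19 and 5349 in DMSO at 0 h, the most of the network in DMSO, with log2 ratios of 0.97 and 1.00 to expectation per the authors' deposited table, and was not classed as detained. Intron 7, by contrast, had 41.0 observed against 2102.5 expected reads in KH-CB19 and 49.0 against 2955.5 in DMSO, log2 ratios of −5.68 and −5.91 that were the lowest of the network per the authors' deposited table.

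The remaining naive factors had no detained intron. Klf2 had 43.5 and 53.0 reads in introns 3 and 5 in KH-CB19 and 33.0 and 51.5 in DMSO, and Klf4 had 17.5 reads in intron 3 in KH-CB19 and 20.0 in DMSO at 0 h. Esrrb, an orphan nuclear receptor, had 78.5 and 45.0 reads in introns 2 and 3 in KH-CB19 and 88.5 and 59.0 in DMSO. None of these Klf2, Klf4 and Esrrb introns differed from expectation per the authors' deposited table. Intron 3 of Nr5a2, a nuclear receptor that can activate Pou5f1, was above expectation in both groups (41.5 observed and 7.5 expected reads in KH-CB19, 30.0 and 6.5 in DMSO, log2 ratios 2.47 and 2.21 per the authors' deposited table). In its annotated counterpart, 703 bp are exon, translated or not, of other coding transcripts. Intron 3 of Tbx3 passed in DMSO only (log2 ratio 1.42, adjusted p = 0.0191), with 1.23 and adjusted p = 0.104 in KH-CB19 per the authors' deposited table. Whether the groups differ there was not tested.

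In the LIF pathway, Stat3, the factor that LIF activates, was detained in intron 22 (chromosome 11, 100751243 to 100754387, intron 21 of 23). It had 29.3 normalised reads in KH-CB19 and 44.9 in DMSO at 2 h, a log2 ratio of −0.62 with adjusted p = 0.376 per the authors' deposited table. At 0 h it had 46.5 observed and 9.5 expected reads in KH-CB19 and 59.0 and 12.5 in DMSO, 4.89-fold and 4.72-fold above expectation. The receptor genes had few reads in every listed intron. Introns 17 and 19 of Lifr had 13.0 and 21.0 reads in KH-CB19 and 20 and 24 in DMSO, against at most 5.0 expected reads, and both passed in both groups per the authors' deposited table. Intron 18 of Lifr had a value in DMSO only (16 observed reads, log2 ratio 2.19). Il6st, the shared signalling chain, passed only in intron 5 in DMSO (log2 ratio 1.49, adjusted p = 0.0439 per the authors' deposited table).

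Fgfr1, a receptor for Fgf4, had the most detained introns of any member, 3. Introns 8, 10 and 11 lie in a row on chromosome 8 between 26672801 and 26678659. At 2 h they had 71.4, 81.7 and 38.5 normalised reads in KH-CB19 and 54.9, 80.0 and 49.8 in DMSO. The log2 ratios were 0.38, 0.03 and −0.37 per the authors' deposited table, with adjusted p of 0.560, 1 and 0.650, so none of the 3 passed. The annotated counterpart of intron 8 spans a 151 bp exon that 2 of the gene's 9 coding transcripts use. Intron 11 matched only a transcript annotated as a target of nonsense-mediated decay, and 0 of the 9 coding transcripts have an intron of its length. Intron 2, 23079 bp long, was below expectation in DMSO (log2 ratio −0.84, adjusted p = 0.0189) and had −0.73 with adjusted p = 0.0626 in KH-CB19 per the authors' deposited table. Fgf4 itself had 1 listed intron, with 77.0 reads in KH-CB19 and 72.0 in DMSO, equal to its expected value in both groups.

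Tcf3 carried the network's only called fall. By symbol this is the E protein gene on chromosome 10. Stem cell papers have used the same symbol for Tcf7l1, which the table lists separately on chromosome 6 and which had no detained intron. Members were taken by symbol, so which of these genes was meant is not settled. Without the E protein gene the network had no called fall. Intron 24 of Tcf3 (79873367 to 79875949, minus strand, 2583 bp) had 215 normalised reads in KH-CB19 and 341 in DMSO at 2 h, 1.58-fold lower (log2 ratio −0.66, adjusted p = 0.0178 per the authors' deposited table). Intron 25, the last one (79873020 to 79873142, 123 bp), had 12.9 reads in KH-CB19 and 25.9 in DMSO, 2.01-fold lower with adjusted p = 0.253 per the authors' deposited table. The intron with the larger ratio was thus the one with fewer reads and no call.

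At 0 h the order of the groups was the opposite for Tcf3 intron 24. It then had 450.5 observed and 81.0 expected reads in KH-CB19 and 396.0 and 73.0 in DMSO, log2 ratios of 2.48 and 2.44 per the authors' deposited table. The centred log2 ratio of KH-CB19 to DMSO was 0.51 at 0 h, with a 95% counting interval from 0.37 to 0.65, the highest of the 14 detained introns. All 7 listed introns of Tcf3 had a centred 0 h ratio above 0, and their summed reads were 620.5 in KH-CB19 and 563.0 in DMSO (0.46 on the centred log2 scale). Introns 2 and 3, near the start of the gene, were below expectation in both groups, with 13.0 and 14.5 observed reads in KH-CB19 and 13.5 and 14.5 in DMSO. For intron 3 the log2 ratio was −3.13 in KH-CB19 and −2.98 in DMSO per the authors' deposited table.

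Intron 24 of Tcf3 is not plain intron in every transcript. Tcf3 makes the proteins E12 and E47 from alternative exons near its 3′ end. The annotated counterpart of intron 24 spans a 236 bp exon that 4 of the 12 coding transcripts use, and only 1 coding transcript has an intron of exactly its length. The junctions printed above show both choices: the upstream exon end is the same, and the bases after the capitals CAG differ. The sources used here do not say how reads from this exon were counted, so reads of the unspliced intron and of transcripts that use the exon cannot be told apart in the values of intron 24. The junction out of this exon has the same 15 bases on each side as the one printed for intron 25.

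**Figure D3:**
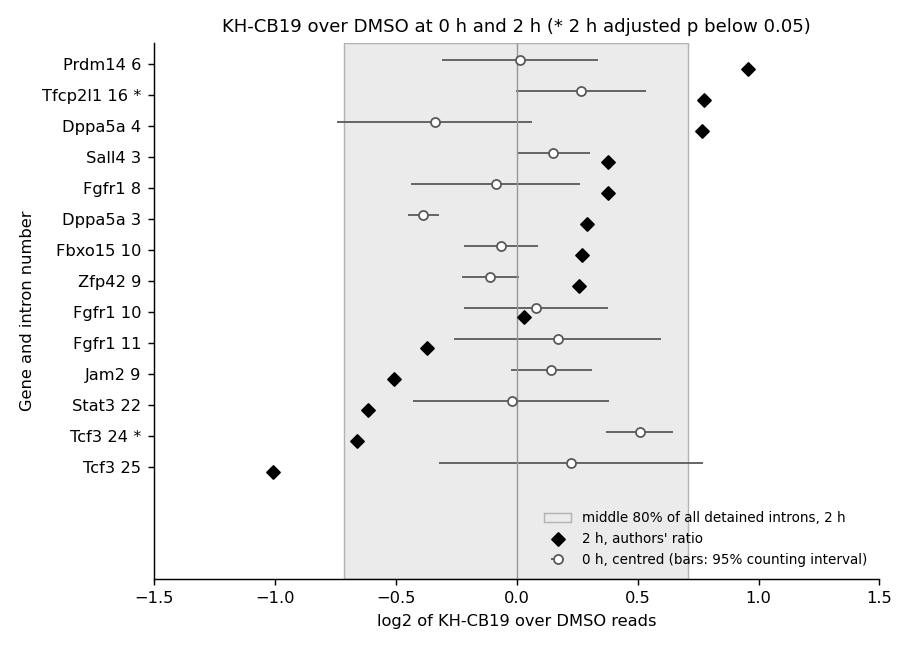
Log2 ratio of KH-CB19 to DMSO in the 14 detained introns, at 0 h (open circles, centred on all introns, bars giving the 95% counting interval) and at 2 h (black diamonds, the authors' ratio), over a grey band with the middle 80% of all detained introns at 2 h (−0.71 to 0.71). Tcf3 intron 24 lies at 0.51 at 0 h and −0.66 at 2 h, and Tfcp2l1 intron 16 at 0.27 and 0.77.

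Tcf7l1, the Wnt-sensitive repressor, had no detained intron. Its intron 3, 139007 bp long, had 145.0 reads in KH-CB19 and 170.5 in DMSO, and its intron 5 passed above expectation in DMSO (log2 ratio 0.95, adjusted p = 0.00279) and had 0.79 with adjusted p = 0.0929 in KH-CB19 per the authors' deposited table. Myc and Mycn, growth-promoting factors, had 1 listed intron each. Myc intron 3 had 23.5 reads in KH-CB19 and 34.0 in DMSO, and Mycn intron 2 had 51.5 in KH-CB19 and 59.0 in DMSO. The RNA-binding genes Lin28a and Lin28b, which block let-7 maturation, and L1td1 had 44.0, 50.5 and 44.0 reads in their listed intron in KH-CB19 and 58.0, 66.5 and 42.5 in DMSO, none apart from expectation per the authors' deposited table.

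The Dppa genes, markers of early embryonic cells, held the largest excess of the network. Dppa5a intron 3 (chromosome 9, 78215676 to 78215791, 116 bp) had 1572 observed reads in KH-CB19 and 2571 in DMSO at 0 h, and intron 4 (78215374 to 78215527, 154 bp) had 43.0 in KH-CB19 and 68.0 in DMSO. Their expected means were 0.5 in both groups, the smallest value above 0 that such a mean can take, so the authors' log2 ratios of 11.62 and 12.33 for intron 3 have a denominator at its floor. At 2 h intron 3 had 2108 normalised reads in KH-CB19 and 1726 in DMSO (log2 ratio 0.29, adjusted p = 0.337), and intron 4 had 73.4 in KH-CB19 and 43.2 in DMSO (0.77, adjusted p = 0.134) per the authors' deposited table. Neither Dppa5a interval matched an annotated intron of the gene. At 0 h the centred ratio of intron 3 was −0.39 (95% counting interval −0.45 to −0.32), the lowest of the 14, so this intron lay below DMSO at 0 h and above it, without a call, at 2 h.

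Dppa4 had introns on both sides of expectation. Its observed and expected means summed to 485.5 and 485.5 reads in KH-CB19 and 607.5 and 608 in DMSO. With such a balance an intron above expectation requires another below it, so the 2 directions are not separate results. Intron 2 was below expectation, with 42.5 observed and 185.5 expected reads in KH-CB19 and 60.5 and 232.0 in DMSO. Intron 6 was above it, with 332.5 and 235.5 reads in KH-CB19 and 446.0 and 295.0 in DMSO. Intron 3 passed in KH-CB19 only, with 110.5 observed and 64.5 expected reads there and 101.0 and 81.0 in DMSO; the difference between the groups was not tested. Dppa2, its neighbour on chromosome 16, had at most 17.0 reads in any listed intron and no call.

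Of the other members, Jam2, a cell adhesion molecule, was detained in intron 9 (chromosome 16, 84819021 to 84821504, intron 8 of 9), with 186 normalised reads in KH-CB19 and 265 in DMSO at 2 h (log2 ratio −0.51, adjusted p = 0.126 per the authors' deposited table). The exon between introns 7 and 9 of Jam2 has 16 bases. Reads per kb of Jam2 were higher further along the gene: introns 5, 7 and 9 had 30.7, 44.4 and 111 in KH-CB19 and 42.3, 58.9 and 126 in DMSO at 0 h, while intron 3 had 4.37 in DMSO (10.5 observed and 93.0 expected reads, log2 ratio −3.15 per the authors' deposited table). Trim28, a co-repressor that silences retroviruses in stem cells, had introns far above and far below expectation. Its intron 25 had 4060 observed reads in KH-CB19 and 4072 in DMSO against 591.0 and 603.0 expected (log2 ratios 2.78 and 2.76 per the authors' deposited table), and 140 of its 227 bp lie in an annotated exon by distance along the gene. Introns 2, 3, 10 and 13 of Trim28 were below expectation in both groups, down to log2 ratios of −5.51 in KH-CB19 and −5.24 in DMSO for intron 2 per the authors' deposited table. Introns 3 and 10 of Trim28 had 91.0 and 73.5 observed reads in KH-CB19 and 110.5 and 98.5 in DMSO.

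Tdgf1 (Cripto), a co-receptor for Nodal, had 4 listed introns, and only intron 7 in DMSO passed (63.0 observed and 30.0 expected reads, adjusted p = 0.0355 per the authors' deposited table), against 24.5 and 17.5 in KH-CB19. Tcea3, an elongation factor, was above expectation in intron 10 in both groups (54.0 observed and 23.5 expected reads in KH-CB19, 42.0 and 20.5 in DMSO). Utf1, a chromatin protein of stem cells, had 843.5 reads in KH-CB19 and 1064.5 in DMSO in its 1 listed intron. Sall1 had 78.5 reads in KH-CB19 and 114.5 in DMSO, and Tcl1, a co-activator of Akt, had at most 17.5.

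Across the network at 0 h, 22 of 86 introns with a KH-CB19 value were above expectation (25.6%, against 27.6% of all introns) and 13 below (15.1%, against 8.93%). In DMSO 27 of 87 were above (31.0%, against 28.2%) and 17 below (19.5%, against 10.9%). Those below in both groups include introns 2, 3, 10 and 13 of Trim28 and introns 2 and 3 of Tcf3. These shares thus count some genes several times. The median log2 ratio of the network was 0.09 in both groups, against 0.60 over all introns in KH-CB19 and 0.53 in DMSO. All 14 detained introns were above expectation in both groups per the authors' deposited table, near the share of all detained introns (93.7% in KH-CB19, 98.7% in DMSO). The rule behind the class is not given, so this may follow from the class itself. Of the 81 introns with a value in both groups, 21 were above in both, 13 below in both, 40 in neither and 0 in opposite directions. Of the other 7, 6 passed in DMSO only and 1, Dppa4 intron 3, in KH-CB19 only. The same counts over all introns are not given here, so this agreement cannot be set against a background.

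How the expected reads were formed is not stated in the sources used here. In 15 of 34 genes in KH-CB19 (44.1%) and 14 of 34 in DMSO (41.2%) the expected means summed to the observed ones within 0.5 reads per intron. Nanog, Sall4, Pou5f1, Dppa4 and Zfp42 were among them in both groups. Over all genes such a balance was found in 957 of 6586 (14.5%) in KH-CB19 and 1132 of 6935 (16.3%) in DMSO. Introns without a value are absent from these sums. Trim28 balanced in DMSO, where all 6 listed introns had a value (4374.5 reads observed and expected). It did not balance in KH-CB19, where 5 had a value (4278.5 observed and 4214.5 expected reads). How far absent introns account for the genes that did not balance was not tested. Dppa5a, with 1615 observed reads and 1 expected read in KH-CB19, and Lin28a, with 44.0 and 36.5, did not balance. In Fgf4, Myc, Mycn, Sall1 and Utf1, with 1 listed intron each, observed and expected means were equal in both groups, so their log2 ratio of 0 says nothing about detention. In genes whose sums balance, the ratios of the introns are not independent of each other: Sall4 intron 8 held 3731 of 4112 reads in KH-CB19 and 5349 of 5781 in DMSO, and Sall4 intron 7 was far below.

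**Figure D4:**
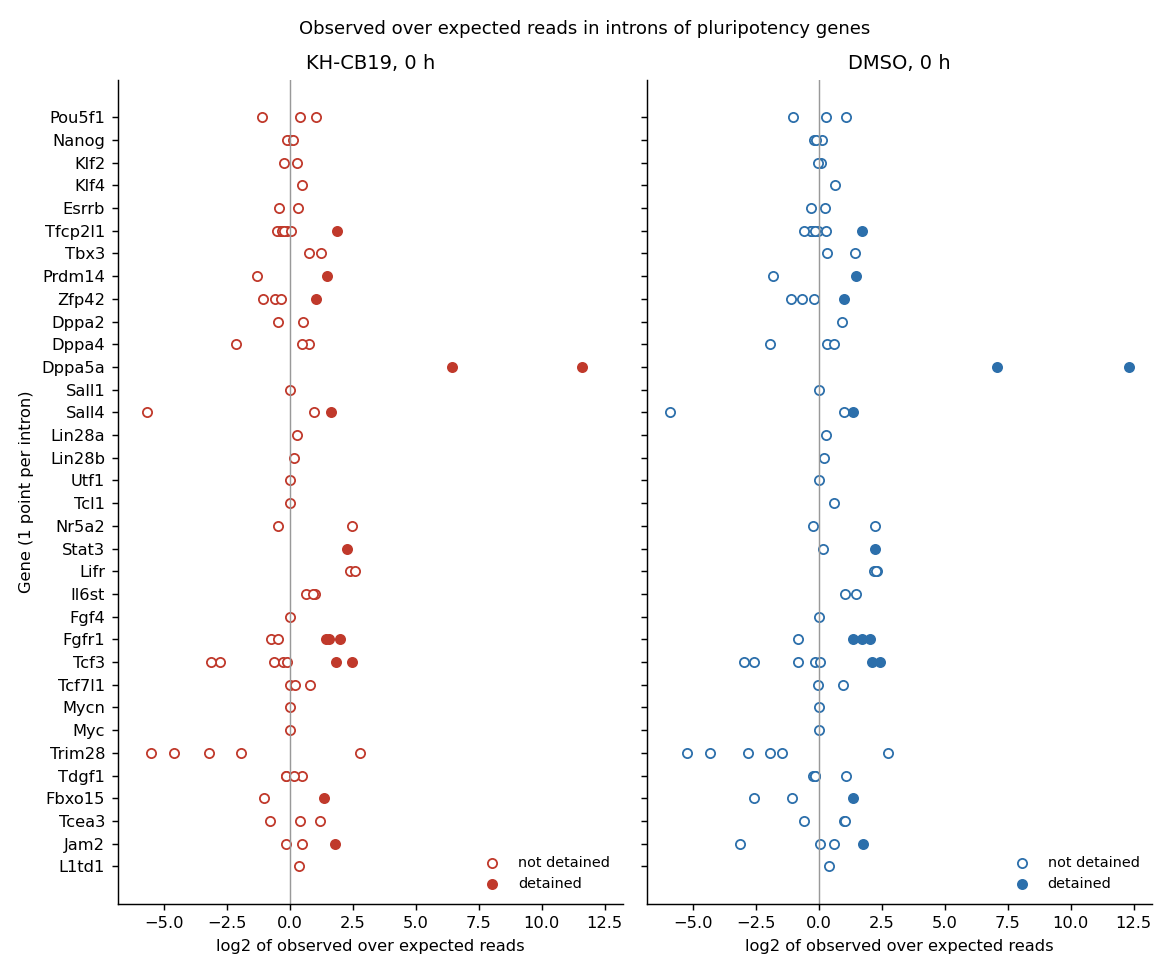
Log2 ratio of observed to expected reads at 0 h in every listed intron of the 34 genes, with KH-CB19 on the left and DMSO on the right; filled points are detained introns and open points are the others. All filled points lie above 0, Dppa5a reaches 11.62 in KH-CB19 and 12.33 in DMSO, and the lowest points belong to Sall4 and Trim28.

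Most detained introns of the network that could be placed ranked late among the introns of the matched transcript, which is not a distance to the 3′ end. Introns 8 and 10 of Fgfr1 and intron 22 of Stat3 did not reach the last pair. Of 10 that could be placed on an annotated coding transcript, 7 were the last or next-to-last intron (Tcf3 24 and 25, Jam2 9, Fbxo15 10, Tfcp2l1 16, Prdm14 6 and Zfp42 9). The same share was 25.9% of 58 other introns of the network, 22.5% of 2671 detained introns of all genes and 18.3% of 15852 introns that were not detained. These 7 introns come from 6 genes, and this is a description with no test. The median length was 2197.5 bp for the 14 detained introns, within a range from 105 to 11781 bp, and 1599 bp for the other 78, against 1562 bp for all detained introns and 2044 bp for all others.

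The 0 h groups lay close together in the network's median. With the ratio of KH-CB19 to DMSO centred on the median of 18080 introns (−0.32 on the log2 scale before centring), the network's median was 0.04, with 43 introns above and 37 below. The highest centred ratio was 0.79 for Nr5a2 intron 3 (95% counting interval 0.29 to 1.29) and the lowest −1.04 for Tdgf1 intron 7 (−1.55 to −0.55). Summed over its introns, Tdgf1 had 174.5 reads in KH-CB19 and 292.5 in DMSO. Cells of both 0 h groups were harvested right after addition, and counting error is the only error that could be given for them.

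Genes around the network were taken as 5 lists of LIF, FGF, Wnt, BMP and Nodal signalling and of further stem cell factors, 121 genes in all. Of these 83 had a listed intron outside the network, with 47 detained introns, of which 1 rose and 3 fell at 2 h, few enough to lie near the shares of all detained introns (5.47% rises, 4.17% falls). In LIF and JAK signalling 1 of 3 fell: intron 12 of Gab1, an adaptor downstream of Il6st, had 52.9 normalised reads in KH-CB19 and 131 in DMSO (log2 ratio −1.31, adjusted p = 0.000151 per the authors' deposited table). Among further stem cell factors 1 of 34 rose and 2 fell. Intron 29 of Hcfc1, a chromatin co-factor, had 22.6 reads in KH-CB19 and 60.1 in DMSO (log2 ratio −1.41, adjusted p = 0.00518 per the authors' deposited table). Mybl2, a cell cycle factor, fell in intron 18 (log2 ratio −1.03) and rose in intron 15 (0.84) per the authors' deposited table. None of 6 detained introns in FGF and ERK genes and none of 4 in Wnt genes passed, with log2 ratios from −0.44 to 0.25 and from −1.01 to 0.37, and the BMP and Nodal list had 0 detained introns.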

How the data were processed

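The submitters' processing notes name build mm9, TopHat2 2.0.9 with Bowtie 1.0.0, DESeq, and Cufflinks 2.1.1, bedtools 2.17.0 and SAMtools 0.1.19, without settings. Per the file headers, the authors deposited mean observed and expected reads per intron at 0 h, multiples of 0.5 and thus unscaled means of counts over 2 libraries. They also deposited log2 ratios with adjusted p-values and, for detained introns, a normalised mean read signal at 2 h. Introns with few reads carry a word for low coverage in place of a value. Depth of whole libraries is unknown, and 95% exact binomial (Clopper-Pearson) intervals on 0 h reads summed over both libraries of a group cover counting error only. The 2 h p-values compare groups of 2 biological duplicates each, per the labels' protocols. Those at 0 h compare observed with expected reads within a single group, and are not comparisons between treatments.

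No new test was made: calls are the authors' adjusted p below 0.05 as deposited, and DESeq is the only testing tool in the authors' notes. The 0 h ratios between groups were centred on their median. Introns were matched to GENCODE M21 (another build) by gene and exact length, which placed 72 of 92; starts are given counting from 1. All detained member introns are named, and of the others those with the 5 highest and lowest ratios per group (expected mean of at least 10) and the most reads per role. Other introns were named after their values were seen. The members and lists were chosen with earlier results of these data known. The counting code was tested on simulated data. Python 3.11.15, pandas 2.3.3 and scipy 1.17.1 were used. The untreated library was not analysed here.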

Additional observations from a re-analysis of the deposited data

How the results depend on the processing

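At an adjusted p of 0.01 in place of 0.05, the adjusted p of the authors' deposited table left 0 rises and 0 falls at 2 h. The share of all detained introns at 0.01 is not given here, so these counts cannot be set against a background. The unadjusted p was also recovered on the assumption of a Benjamini-Hochberg adjustment (added after seeing the data). At this p under 0.05, 2 of the 14 introns were higher and 2 lower, near the 385 higher and 339 lower of all 3454 detained introns. No other tool was run. With a mean of at least 50 reads, introns below expectation at 0 h numbered 5 in KH-CB19 and 5 in DMSO. Those above numbered 15 in KH-CB19 and 16 in DMSO. Fewer introns are counted there by construction. The share over all introns with this filter is not given here, so these counts cannot be set against a background. Pseudocounts of 0.1, 1 and 10 cannot change the direction of a ratio, so they bear on its size only. At a pseudocount of 10 the 2 h log2 ratio was 0.71 for Tfcp2l1 intron 16 and −0.64 for Tcf3 intron 24. Scaling to the sum over detained introns lowers every 2 h log2 ratio by the same 0.09, and gave 0.69 for Tfcp2l1 intron 16 and −0.75 for Tcf3 intron 24. That scaling turned Fgfr1 intron 10, not called, to −0.06. Of 656 recomputed single values, 634 stayed within counting error; of the 22 that moved, 21 were 0 h ratios at a pseudocount of 10. No paired analysis was possible because the table holds group means with no column per library, and no library could be left out in turn for the same reason. Introns with few reads, such as Tcf3 intron 25, limit what this depth can show.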
